A study of Mus musculus with 2 samples.

Results

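The subject here is the binding peaks of a Dux chimera that lie deep inside very long mouse genes, away from the outer ends of every protein-coding gene span. Members were the deposited peaks of chromosomes 1 to 19 whose summit, the point of highest coverage, fell inside a protein-coding gene spanning 300 kb or more and over 5 kb from both ends of every protein-coding gene. Of 51356 peaks in all, 49034 were on chromosomes 1 to 19 and 6228 of these (12.7%) met the rule. A further 140 summits inside such genes were left out because they lay within 5 kb of a gene end. There were 532 long genes, and 528 of them held at least 1 member. A member lay in 1 long gene in 6209 cases and in overlapping long genes in 19, since pairs such as Iqschfp and Schip1 share 561.7 kb of chromosome 3.

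The cells were C2C12, an established mouse myoblast line, and all came from 1 clone in which doxycycline switches on a transgene named MMH. MMH is a codon-altered chimera that joins the N-terminus and DNA-binding homeodomains of mouse Dux to the C-terminus of human DUX4. Both libraries came from cells labelled as treated with doxycycline, for which the protocol gives 2 ug/ml and 18 h of induction. One was immunoprecipitated with MO488 and MO489, antisera to DUX4, and the other, the control, with an antibody labelled anti-HA, where the design text instead gives one to GFP. There was 1 library per antibody, with 26253175 fragments kept for the antisera and 23412256 for the control, so peaks have no replicate check and every interval and test below covers counting error only. C2C12 cells without the transgene and the human DUX4 data set that the design mentions were not analysed here.

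Dux in mouse and DUX4 in human are transcription factors with a pair of homeodomains, known for activating genes of early cleavage-stage embryos, and DUX4 is known for its misexpression in facioscapulohumeral muscular dystrophy. Genes of this length are mostly intron. Many encode proteins of the nervous system, such as synaptic adhesion molecules, scaffolds and ion channels, and a smaller group encodes proteins of muscle and the cytoskeleton. Such genes hold many bases that are genic and yet far from a promoter.

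No genome sequence was at hand for the peaks themselves, so the sequences that could be shown are those of RefSeq promoter windows (GRCm38.p6), which run from 250 bases before to 50 bases after an annotated transcript start. Of 32851 windows, 14 overlapped a member peak, through 13 peaks, and 4 of them held the summit. Of the 14, 11 start a long noncoding RNA and 3 are starts inside the span of the long protein-coding gene itself, 1 in Baz2b with the summit 16 bp outside the window and 2 in Mgat4c. A member can therefore lie near a transcript start within its gene. The 4 windows that held the summit all start a long noncoding RNA that lies within the long gene. They are shown because they are the places where the bases under a member's summit can be read. Each line gives the RNA, its host gene and the window on its own strand, 5′ to 3′, with the bases within 50 bp of the summit in capitals.
Gm51988 in Rgs6, chr12:83144746-83145045, minus strand: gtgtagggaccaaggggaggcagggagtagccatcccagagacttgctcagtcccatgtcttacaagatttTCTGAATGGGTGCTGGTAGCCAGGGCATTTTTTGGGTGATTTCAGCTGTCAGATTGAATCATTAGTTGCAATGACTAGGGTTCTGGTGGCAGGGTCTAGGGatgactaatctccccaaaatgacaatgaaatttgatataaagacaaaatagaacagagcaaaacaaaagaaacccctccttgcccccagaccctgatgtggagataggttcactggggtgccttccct
Ptprtos in Ptprt, chr2:162390563-162390862, plus strand: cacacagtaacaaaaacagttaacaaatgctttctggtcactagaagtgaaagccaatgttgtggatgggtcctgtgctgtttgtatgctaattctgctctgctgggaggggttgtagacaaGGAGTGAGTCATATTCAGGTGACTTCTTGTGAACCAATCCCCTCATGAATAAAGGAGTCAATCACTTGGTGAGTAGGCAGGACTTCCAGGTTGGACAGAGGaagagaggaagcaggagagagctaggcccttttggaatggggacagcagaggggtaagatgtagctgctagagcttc
Gm51910 in Asic2, chr11:81135080-81135379, plus strand: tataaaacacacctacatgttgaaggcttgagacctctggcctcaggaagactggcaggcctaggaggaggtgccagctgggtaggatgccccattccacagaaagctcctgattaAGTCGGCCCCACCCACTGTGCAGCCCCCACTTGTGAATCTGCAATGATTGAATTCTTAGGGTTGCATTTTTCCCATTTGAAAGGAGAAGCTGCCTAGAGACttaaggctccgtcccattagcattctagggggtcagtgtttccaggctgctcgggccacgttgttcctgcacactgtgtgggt
Gm31370 in Nell2, chr15:95473453-95473752, minus strand: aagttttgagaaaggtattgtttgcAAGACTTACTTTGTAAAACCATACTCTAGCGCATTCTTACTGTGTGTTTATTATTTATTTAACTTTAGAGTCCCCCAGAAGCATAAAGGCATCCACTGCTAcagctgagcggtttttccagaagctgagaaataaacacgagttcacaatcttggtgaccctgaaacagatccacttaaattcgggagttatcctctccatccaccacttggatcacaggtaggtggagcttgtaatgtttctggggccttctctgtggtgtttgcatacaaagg

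These windows were searched for TGATT, 1 base of any kind and then AATCA, a palindromic core of 11 bases that reads the same on both strands and was used here as the Dux core. The strongest of the 4 peaks, 16.4-fold at Gm51988 inside Rgs6 (a regulator of G-protein signalling), had AGATTGAATCA directly under its summit, with 1 mismatch in the 10 fixed positions. The 5.59-fold peak at Ptprtos inside Ptprt (a receptor tyrosine phosphatase) had GGAGTCAATCA 3 bp from the summit, with 2 mismatches. At Gm51910 inside Asic2 (an acid-sensing ion channel), a 4.99-fold peak had TGATTGAATTC directly under the summit, with 2 mismatches. The 5.19-fold peak at Gm31370 inside Nell2 (a secreted protein of neurons) had no match closer than 3 mismatches. Over the 14 windows, 0 held the exact core, 1 came within 1 mismatch and 6 within 2, while 0.0335%, 0.734% and 10.1% of all windows did so. TGATT or its reverse complement AATCA, which are parts of the same core, stood in 8 of the 14 windows and in 37.0% of all windows. A match is a description of letters, and 14 windows are too few to compare shares.

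The density of members was slightly higher deep inside long genes than deep inside shorter ones, and the difference was not seen once the shorter genes were limited to those of some size. Long genes held 2.12 peaks per 100 kb (95% exact Poisson interval 2.06 to 2.17) over 294.2 Mb of deep bases, meaning bases inside a gene and over 5 kb from every coding gene end. Shorter genes held 1.97 per 100 kb (1.93 to 2.01), with 10251 peaks over 520.6 Mb. Bases outside coding genes and over 5 kb from their ends held 1.98 per 100 kb, and bases within 5 kb of an end 1.98. The bases outside were counted from the first coordinate of each chromosome, and unassembled stretches were not taken out. The density outside coding genes is therefore a lower bound and cannot be ranked against that of long genes. The ratio of long to shorter genes was 1.08 (1.04 to 1.11, 2-sided exact conditional binomial test, p = 7.02e-06), and with chromosome as stratum the Mantel-Haenszel ratio was 1.08 (1.05 to 1.12, p = 1.28e-06). Against the shorter genes with 100 kb or more of deep bases, an alternative chosen after seeing the data, the ratio was 0.997 (exact conditional binomial test, p = 0.886). With bases within 20 kb of an end left out it was 1.02 (same exact test, p = 0.210).

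The chromosomes differed more from each other than the gene classes did. Chromosome 15 held 3.32 members per 100 kb in its long genes and 2.88 peaks per 100 kb deep in its shorter genes. On chromosome 4 these densities were 2.26 and 2.19. The long genes of the other 17 autosomes ranged between 1.71 per 100 kb, on chromosome 7, and 2.60, on chromosome 19. The density was higher in long than in shorter genes on 16 of 19 chromosomes, and the difference passed an adjusted p of 0.05 over the 19 (exact conditional binomial test, Benjamini-Hochberg) as a higher density on 6 of them, chromosomes 5, 8, 9, 12, 17 and 19, and as a lower one on chromosome 3 (ratio 0.836). The local background, which could be recovered from the deposited values, exceeded its lowest level of 4.01 fragments in 82.4% of the chromosome 15 members and 44.1% of those of chromosome 4. The remaining autosomes had shares of 10.2% to 20.7%. The part of this background in the densities of chromosomes 15 and 4 was not tested, and each gene below is compared with its own chromosome.

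**Figure D1:**
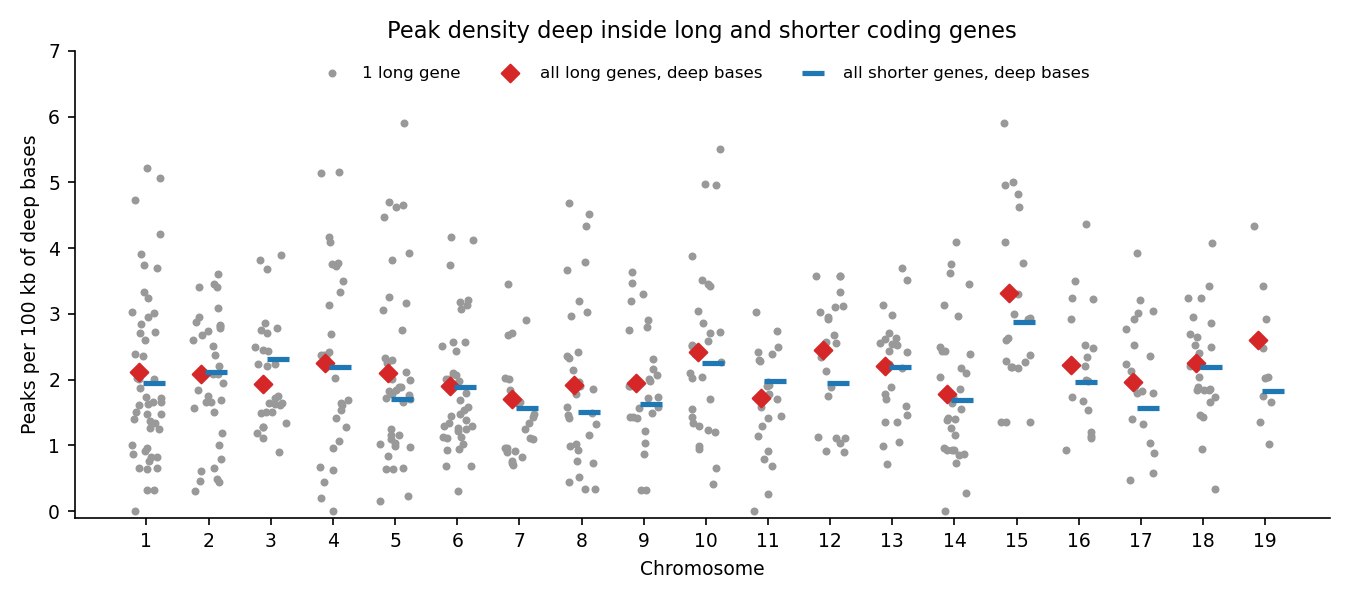
Peaks per 100 kb of deep bases (y axis) by chromosome (x axis), with 1 grey point for each of the 532 long genes, a red diamond for all long genes of a chromosome pooled and a blue bar for all its shorter genes pooled. Chromosome 15 stands above the rest in both classes, at 3.32 in long and 2.88 in shorter genes, and single genes spread between 0 and 5.91.

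Genes differed widely among themselves. The median long gene held 9 members at 1.94 per 100 kb of its deep bases, with an interquartile range of 1.30 to 2.75 and a range of 0 to 5.91. Of the 532 genes, 528 held at least 1 member, 250 held 10 or more and 30 held 30 or more. Spans ran between 300.2 kb and 2271 kb with a median of 450.8 kb, and density hardly varied with length. The median density was 1.91 per 100 kb in the 317 genes of 300 to 500 kb, 1.89 in the 160 genes of 500 kb to 1 Mb and 2.02 in the 55 genes of 1 Mb or more, and the last held 1600 of the members (25.7%). Spearman's rho between span and density was 0.0206 across the 532 genes, which are not independent replicates. The genes just over the length limit were Zfp423 (300.2 kb, 0.345 per 100 kb), Kcnq3 (300.3 kb, 4.82) and Jazf1 (300.6 kb, 0.688), and those just under it were Akap13 (299.1 kb, 2.77), Atp2b2 (298.8 kb, 1.39) and AW554918 (298.6 kb, 3.12). The members nearest a gene end were 5049 bp away, in Fat3, and 5093 bp away, in Gmds, while summits in Cadm2 at 5000 bp and in Cdh23 at 4956 bp fell just outside.

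To see which genes stand out, the peak count of each gene was compared with the count its deep bases would hold at the density of all deep genic bases of its chromosome. The 2-sided exact Poisson test was run over 9434 coding genes with 10 kb or more of deep bases and adjusted over all of them by Benjamini-Hochberg. Among all genes tested 0.212% passed as denser and 0.0212% as sparser. Among the 532 long genes 10 (1.88%) passed as denser and 2 (0.376%) as sparser, and among the 8902 shorter genes 10 passed as denser and 0 as sparser. Long genes have higher expected counts and so can pass with smaller ratios. No shorter gene could have passed as sparser, even at 0 peaks. Khdrbs2, with 0 peaks against 10.0 expected, had an adjusted p of 0.0412 in the exact Poisson test. Kcnq3, just over the length limit and on the densest chromosome, had only 8.80 expected. The shares of sparser genes in the 2 classes therefore cannot be compared. These calls did not hold under a wider spread between genes. With a negative binomial of dispersion 0.183, estimated over the same genes, 0 genes passed. At an unadjusted p under 0.05 in that model, 13 of the 532 long genes were denser and 7 sparser. Together these are below the share that such a limit allows without any difference, so they mark no gene as standing out. With summits within 5 kb of each other counted once, 0 long genes passed in the exact Poisson test, and the ratios of observed to expected of the 10 denser genes were then 1.59 in Dlg2 to 2.44 in Pclo. The genes below are thus those that exceed Poisson counting error for single peaks.

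**Figure D2:**
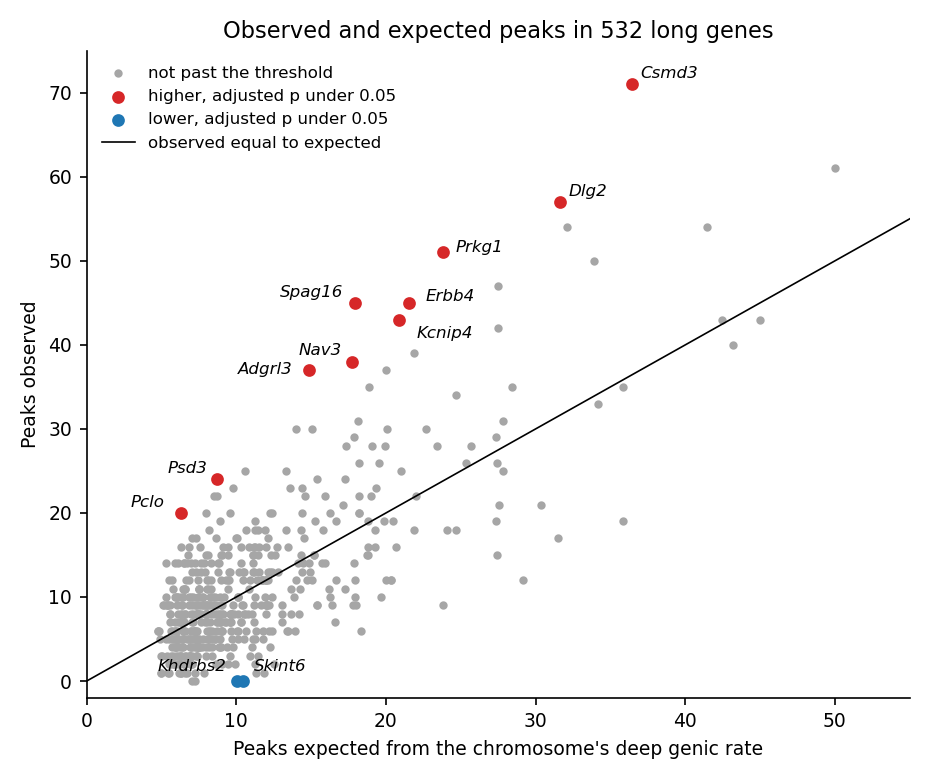
Peaks observed (y axis) against peaks expected at the chromosome's deep genic density (x axis) for the 532 long genes, with the line of equality. The 10 genes in red and the 2 in blue passed an adjusted p of 0.05 in the exact Poisson test; Csmd3 lies highest with 71 peaks against 36.4 expected, and Skint6 and Khdrbs2 lie at 0.

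Of the 10 denser genes, Csmd3, Adgrl3 and Erbb4 were on the list for synaptic adhesion and axon guidance used below, Dlg2 and Prkg1 on that for signalling, Kcnip4 on that for channels and Nav3 on that for muscle and cytoskeleton. Spag16, Pclo and Psd3 were on none. Csmd3, a transmembrane protein with CUB and sushi domains (chr15:47580638-48792558), held 71 members against 36.4 expected, or 5.91 per 100 kb (4.61 to 7.45; adjusted p = 0.00243 in the exact Poisson test). It was the long gene with the most members, and 90.1% of them had a local background above the lowest level. Dlg2, the postsynaptic scaffold PSD-93 on chromosome 7, held 57 members against 31.6 expected over 1963 kb of deep bases (2.90 per 100 kb, 2.20 to 3.76; adjusted p = 0.0325, exact Poisson). Adgrl3, the adhesion receptor latrophilin-3 on chromosome 5, held 37 members against 14.8 expected (4.63 per 100 kb, 3.26 to 6.38; adjusted p = 0.00346, exact Poisson). Pclo encodes piccolo, a scaffold of the presynaptic active zone (chr5:14514906-14863465). With 20 members against 6.29 expected it was the densest long gene, at 5.91 per 100 kb (3.61 to 9.12), and 13 of the 20 fell within 100 kb of each other. Nav3, a neuron navigator that associates with microtubules, held 38 members on chromosome 10 against 17.8 expected (4.97 per 100 kb, 3.52 to 6.82).

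Spag16 encodes a protein of the central apparatus of motile cilia and sperm flagella (chr1:69826872-70725132) and had the smallest adjusted p, 0.00107 in the exact Poisson test, with 45 members against 17.9 expected (5.07 per 100 kb, 3.70 to 6.78). Prkg1, the cGMP-dependent protein kinase of smooth muscle relaxation, held 51 members on chromosome 19 against 23.8 expected, and 16 of them were 20-fold or stronger, the highest such count of the long genes. Erbb4, a receptor tyrosine kinase for neuregulins (chr1:68031884-69108576), held 45 members against 21.5 expected. Of these, 14 fell within 100 kb, and the longest stretch without a peak was 205.9 kb. Erbb4 lies close to Spag16 on the same chromosome, and whether both belong to a shared dense region was not tested. Kcnip4, a calcium-binding partner of voltage-gated potassium channels on chromosome 5, held 43 against 20.9 expected. Psd3, an exchange factor for the small GTPase Arf6 on chromosome 8, held 24 members against 8.73 expected, 9 of them 20-fold or stronger. The adjusted p of the exact Poisson test was 0.00346 for Prkg1, 0.0174 for Erbb4, 0.0203 for Pclo, 0.0238 for Kcnip4 and for Psd3, and 0.0293 for Nav3. Ratios of observed to expected over the 10 genes ran between 1.80 in Dlg2 and 3.18 in Pclo. The median fold enrichment of their members ran between 6.56 in Dlg2 and 12.2 in Prkg1, beside 8.18 over all members.

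**Figure D3:**
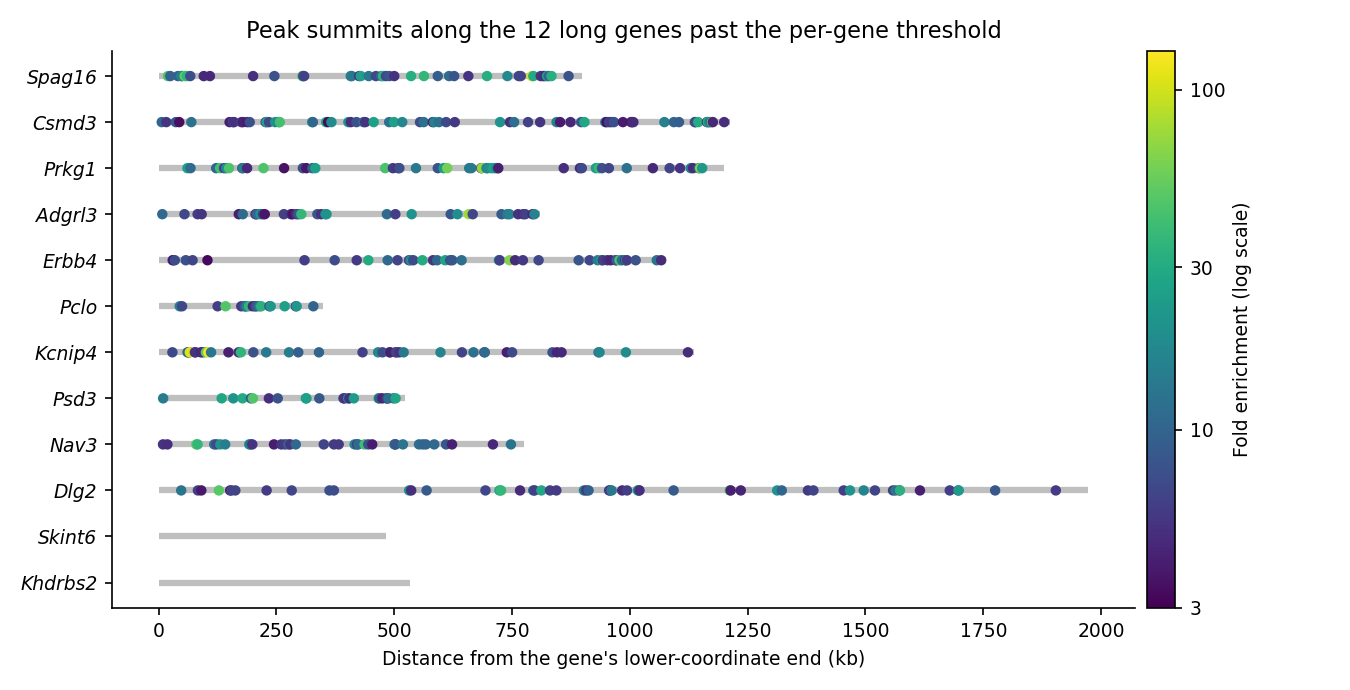
Position of each peak summit along the 12 long genes past the per-gene threshold (x axis, kb from the end with the lower coordinate), with grey bars for the gene spans and colour for fold enrichment on a log scale. Summits are spread over most of each denser gene with local groups, as in Pclo, and Skint6 and Khdrbs2 hold none.

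Peaks were missing deep inside 4 long genes. Expected counts took every deep base as able to hold a peak, and bases where reads cannot be placed were not taken out. The part of such bases in the low counts below was not tested. Skint6, a member of the family named for the upkeep of intraepithelial T cells (chr4:112804616-113286973), held 0 peaks where 10.4 were expected (adjusted p = 0.0322, exact Poisson, upper bound 0.781 per 100 kb). Khdrbs2, an RNA-binding regulator of splicing (chr1:32172602-32705224), held 0 where 10.0 were expected (adjusted p = 0.0412, exact Poisson, upper bound 0.742 per 100 kb). Klhl1, a kelch protein of neurons, held 0 against 7.01 expected, and Slc39a11, a zinc transporter, 0 against 7.24, and neither passed (adjusted p = 0.221 and 0.188, exact Poisson). Neither could have passed as sparser, since 0 is the lowest count and too few peaks were expected. Low values near the threshold were 1 peak against 11.9 expected in Tmem132d (adjusted p = 0.0584, exact Poisson), 1 against 11.3 in Skint5, of the same family and chromosome as Skint6 (0.0831), 12 against 29.1 in Naaladl2 (0.116) and 2 against 12.5 in Hs6st3, a heparan sulfate sulfotransferase (0.123).

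Other long genes ranked high without passing the test. By density the next were Ppfia2, a liprin of the synapse, with 25 members against 10.5 expected (5.51 per 100 kb, adjusted p = 0.0669, exact Poisson), and Hmcn1, an extracellular matrix hemicentin, with 22 (5.22 per 100 kb, 2.59 times the expected count, adjusted p = 0.0584, exact Poisson). Macf1, a crosslinker of actin and microtubules, had 5.16 per 100 kb, the nuclear protein Rere 5.14, and Trdn, the triadin of the muscle sarcoplasmic reticulum, 4.96 (19 members against 8.90 expected). Nell2, Oxr1 and Kcnq3 on chromosome 15 stood at 5.01, 4.96 and 4.82 per 100 kb, with ratios to their chromosome of 1.65, 1.64 and 1.59. By count, Csmd3 was followed by Ptprd, a receptor tyrosine phosphatase at synapses with 61 members against 50.0 expected, then by Dlg2 with 57. Macrod2, a hydrolase of ADP-ribose, held 54 against 41.5 expected, and the axon guidance receptor Robo2 54 against 32.1. These genes therefore combine a large count with a ratio of 1.22 in Ptprd, 1.30 in Macrod2 and 1.68 in Robo2.

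Long genes were also grouped by function and set beside all 532, of which 48.3% held more peaks than expected. Some genes were on more than 1 list, such as Dlg2 (signalling and common fragile sites) and Pde4d (muscle and signalling). Of 70 long genes for synaptic adhesion and axon guidance, 31 held more than expected and 3 passed as denser, with a median of 1.94 per 100 kb, equal to that of all long genes. This list ran between Csmd3 at 5.91 and Tmem132d at 0.156 per 100 kb, with Nrxn3 at 3.12 and Dscaml1 at 0.316. Of 53 genes for ion channels, receptors and transporters 29 held more than expected and 1, Kcnip4, passed (median 2.02). Grm7, a metabotropic glutamate receptor, stood at 3.07 in that list and the calcium channel gene Cacna1a at 0.343. Of 67 genes on the list for kinases, phosphatases, phosphodiesterases and G-protein signalling, 37 held more than expected and 2 passed as denser (median 2.14). Its low end held Galnt17 at 0.236 per 100 kb and the sulfotransferase gene Hs6st3 at 0.277. The name of that list thus does not describe every member.

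The group with the highest median was that of muscle, cytoskeleton and extracellular matrix genes, with 2.44 per 100 kb over 45 genes. Of these, 29 (64.4%) held more peaks than expected and 1, Nav3, passed. Not every gene of this list is a muscle gene, and the medians of the lists were not compared by a test. Adamtsl1, a secreted matrix protein, had 37 members at 4.09 per 100 kb, Thsd7b 35 at 3.74 and the phosphodiesterase gene Pde4d 35 at 2.71. At the low end Ank3, the ankyrin-G that anchors membrane proteins to the cytoskeleton, had 2 members (0.413 per 100 kb) and the actin-nucleating formin Fmn2 had 1 (0.322). The lowest median belonged to 45 transcription and RNA-binding regulators, at 1.70 per 100 kb, with 17 (37.8%) above expectation, 0 passing as denser and Khdrbs2 passing as sparser. Zbtb20 and Hdac9, regulators of transcription, stood at 3.24 and 2.56 per 100 kb there and Zfhx3 at 0.446. Genes at common fragile sites, which are long by nature, had a median of 1.95 over 25 genes, with 12 above expectation and 1, Dlg2, passing. Lsamp and Cntnap2 each held 43 members at 1.98 and 1.93 per 100 kb, while Csmd1 and Naaladl2 held 15 and 12 at 0.930 and 0.898.

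In strength, members were much like peaks deep inside shorter genes. Fold enrichment, the authors' ratio of the fragment pileup to the local background, had a median of 8.18 in both classes, with an interquartile range of 5.75 to 13.8 in long genes and 5.62 to 14.0 in shorter ones. Outside chromosome 15, most members had that background at its lowest level of 4.01 fragments. The fold of those members follows their pileup alone. Member peaks had a median pileup of 41 fragments, between 13 and 705, and a median width of 431 bp. Peaks of 20-fold or more made up 864 members (13.9%) and 1497 peaks of shorter genes (14.6%), an odds ratio of 0.942 (2-sided Fisher exact test, p = 0.199, adjusted over 4 measures 0.266). Peaks of 50-fold or more made up 96 members (1.54%) and 187 peaks of shorter genes (1.82%; adjusted p = 0.266, Fisher exact). At 10-fold or more the shares were 38.5% and 38.4%.

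**Figure D4:**
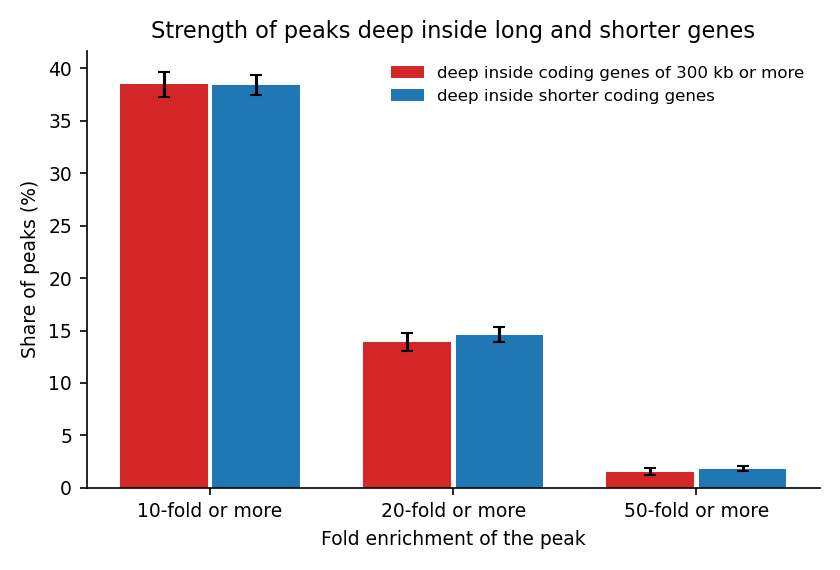
Share of peaks (y axis, percent, with 95% exact binomial intervals) at or above 3 limits of fold enrichment (x axis) for peaks deep inside long genes (red) and deep inside shorter genes (blue). The bars of each pair lie close, as at 20-fold or more with 13.9% in long genes and 14.6% in shorter genes.

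A fold enrichment of 100 or more was reached by 9 members, of which those described here follow. The highest lay 40.8 kb from the nearer end of Ryr3, a calcium release channel of the ryanodine receptor family, at chr2:113176210-113177198. It had a pileup of 705 fragments and a fold of 141 (130.6 to 151.6), while Ryr3 as a whole held 17 members against 12.1 expected. The interval of the fold is the 95% exact Poisson interval of the pileup with the background held fixed. It leaves out counting error of the control and the choice of the strongest summit. Kcnip4 held a pair, of 126-fold at chr5:48494333-48495602 and of 108-fold at chr5:48455405-48456144. Oxr1, an oxidation resistance gene, and St6galnac3, a sialyltransferase, held peaks of 113-fold each, on chromosomes 15 and 3. Cdh18, a cadherin, held one of 111-fold, Spag16 one of 105-fold and Bnc2, a zinc-finger basonuclin, one of 103-fold, which lay 201.0 kb from the nearer end. Below 100-fold followed Piezo2, the mechanosensitive channel, at 91.6-fold and the protocadherin Pcdh7 at 85.2-fold. Of these genes Kcnip4 and Spag16 passed the test of density.

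Members lay slightly closer to other peaks than the peaks of shorter genes did. The median distance to the nearest peak of any class was 11.5 kb for members, 13.0 kb for peaks deep inside shorter genes and 11.7 kb for peaks outside coding genes. Another peak lay within 5 kb of 29.6% of members, 27.3% of peaks in shorter genes and 29.4% of those outside. These shares are descriptions without a test.

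Along the genes no gradient was seen. Strand was known for 405 long genes, those whose gene ID had promoter windows on 1 strand, and of their peaks 48.9% (95% exact binomial interval 47.5 to 50.4) lay on the 5 prime side of the gene's midpoint, as did 50.0% of their deep bases (2-sided exact binomial test, p = 0.132). With each gene split into 10 equal parts, density ran between 1.96 per 100 kb in part 4 and 2.30 in part 6. Part 1, at the 5 prime end, had 2.05 (1.86 to 2.25) and part 10 had 2.26 (2.06 to 2.47). The gene table gives no exons, so members were not split into exonic and intronic ones.

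**Figure D5:**
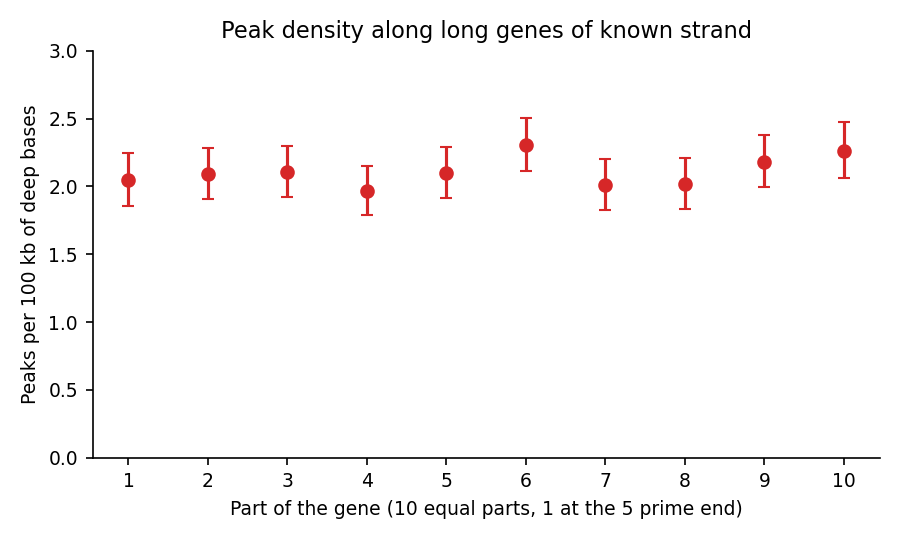
Peaks per 100 kb of deep bases (y axis, with 95% exact Poisson intervals) in 10 equal parts of the gene counted from its 5 prime end (x axis), pooled over 405 long genes of known strand. Values lie between 1.96 and 2.30, and the intervals of part 1 and part 10 overlap.

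Members were less often near one than peaks of shorter genes were, and so were the deep bases themselves. Within 5 kb of a noncoding gene end lay 412 members (6.62%) and 936 peaks of shorter genes (9.13%), an odds ratio of 0.705 (2-sided Fisher exact test, p = 8.65e-09). Such bases made up 6.13% of the deep bases of long genes and 9.82% of those of shorter genes. Counted per base, an alternative chosen after seeing the data, the ratio of long to shorter genes near a noncoding end was 1.25 (exact conditional binomial test, p = 0.00022), the opposite direction. Within long genes, density was 2.29 per 100 kb near a noncoding end and 2.11 away from one (ratio 1.09, 0.980 to 1.20, exact conditional binomial test, p = 0.107). Summits inside a noncoding gene made up 5.14% of members and 4.59% of peaks in shorter genes (Fisher exact, p = 0.115).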

How the data were processed

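The antibody label sets the groups of this ChIP-seq experiment, with 1 library for the DUX4 antisera and 1 for HA. Per the file headers, MACS 2.1.0.20151222 was run by the authors in paired-end mode, antisera against control, with a q-value limit of 0.01 and duplicates reduced to 1 fragment. The submitters' processing notes name BWA and the build mm10. The deposited pileup is a coverage signal that counts antisera fragments at the summit. The authors' list also gives −log10 of the p-value and q-value, and a fold enrichment deposited as the ratio of pileup to local background, each plus 1. Scores served to describe and select peaks of this 1 list. Redundant shares of 20% for the antisera and 42% for the control come from the file headers.

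Gene spans were those of RefSeq on GRCm38.p6, the assembly of mm10, in a table without strand or exons. Strand was taken from the RefSeq promoter windows. Noncoding genes were all genes of that table that are not protein-coding. Deep bases were counted once where genes overlap for class totals, and for each gene in per-gene tests. Python 3.11.15, numpy 2.4.6, pandas 2.3.3 and scipy 1.17.1 were used. The per-gene exact Poisson test was tried on simulated Poisson counts without added spread between genes. Changes were planted there only in genes with 8 or more peaks expected. Densities have 95% exact Poisson intervals, which cover counting error only. Per-gene tests took a threshold of 0.05 on the adjusted p.

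Genes named were the 12 highest and 12 lowest in density with 200 kb or more of deep bases, those past the threshold, the 6 with most peaks, the 10 holding the strongest members, up to 4 by count and 2 by low density per list, and those next to the length limit. One gene that this rule names is not reported here. Genes and hosts of the promoter windows, the summits next to the 5 kb limit and the pair Iqschfp and Schip1 were named after their values were seen. The members and gene lists were chosen with earlier results of these data known. Alternatives covered the q-value, distance and length limits, clustered summits, raised background, chromosomes 4 and 15, the expected density and its distribution, and the limits of strength and of distance to noncoding genes.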

Additional observations from a re-analysis of the deposited data

Results flagged for a closer look

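The X chromosome lies outside the comparisons above and also holds peaks deep inside very long genes. On its 24 coding genes of 300 kb or more there were 280 such peaks, at 1.91 per 100 kb of deep bases (95% exact Poisson interval 1.69 to 2.15), with a median of 7.23-fold. The long genes of chromosomes 1 to 19 held 2.12 per 100 kb at a median of 8.18-fold. The X was not compared with these by a test.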

How the results depend on the processing

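The ratio of long to shorter genes lay between 0.997 and 1.10 over 11 alternatives. It stayed above 1 and past the threshold in 9, was 1.02 (exact conditional binomial p = 0.210) over 20 kb from gene ends and was 0.997 against shorter genes with 100 kb or more of deep bases, which was chosen after seeing the data. The counts of denser and sparser genes, 10 and 2, both became 0 with a negative binomial and with summits within 5 kb counted once, and 2 and 0 at a −log10 q of 20 or more. Sparser genes numbered 4 with 1 density for chromosomes 1 to 19, 1 among genes of 500 kb or more and 1 without chromosomes 4 and 15, and fewer genes and peaks enter the last 2 and the stricter q. In the remaining alternatives 8 to 11 genes were denser and 2 sparser. Over 20 kb from gene ends those 2 were Skint6 and Skint5 (adjusted p = 0.0271 and 0.0218, exact Poisson). Khdrbs2 did not pass there (0.0638), nor did Nav3 (0.0604) or Dlg2 (0.0559). With 1 density for chromosomes 1 to 19, Cdh18, Ppfia2, Hmcn1 and Adamtsl1 also passed as denser (11 in all) and Tmem132d and Hs6st3 as sparser, while Psd3, Kcnip4 and Dlg2 did not pass. No named gene past the threshold reversed direction. The odds ratio for 20-fold peaks was between 0.843 and 1.00 and passed in no alternative; at 10-fold or more it was 1.00112, above 1. The odds ratio near noncoding ends was 1.12 for summits inside a noncoding gene and 1.25 as a ratio per base, against 0.636 to 0.729 in the other 10. The share on the 5 prime side differed from that of bases by -1.76 to -0.431 percentage points and passed in none of 9. No paired analysis was possible because there is 1 library per antibody and the peak list has no replicates. The causes of these changes were not tested. Of 532 long genes, 209 had fewer than 8 peaks expected, too few to pass as sparser even with 0 peaks. The limit lies above 8, since 0 peaks against the 8.80 expected in Kcnq3 would not have passed either. More than 209 long genes therefore could not pass as sparser. The effect of sequencing depth was not tested.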
